A study of Mus musculus with 4 samples.

Results

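The genes described here encode the proteins of the cytosolic ribosome. They were chosen by name: a gene was taken when its symbol in the platform annotation was Rpl or Rps followed by a number, with a closing letter a, x, y or l and a further number allowed, and kinases of the Rps6k family were left out. Of 56 genes with such a symbol, 47 had a value on all 4 arrays after the probes of each gene had been averaged, out of 6327 genes tested in all. They comprised 27 genes of the large subunit (Rpl) and 20 of the small subunit (Rps). Of the other 9 genes, Rpl13, Rpl22l1, Rpl32, Rpl38, Rps29 and Rps4x had their probes in rows that were left out, and Rpl24, Rpl36a and Rpl7 had a value on 3 arrays. Rpl24 had 1.72, -2.77 and -1.14 on arrays 2 to 4, Rpl36a had 0.60, -1.44 and -0.07 on the same arrays, and Rpl7 had 0.70, 0.05 and -1.94 on arrays 1, 3 and 4.

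NIH3T3 is an established line of mouse embryonic fibroblasts. Cells of this line that had been transfected with Erbb2, a receptor tyrosine kinase gene, and overexpressed it per the labels, were compared with untransfected NIH3T3 cells of normal Erbb2 expression on 4 two-colour cDNA microarrays. Cy5 marked the transfected cells on arrays 1 and 2 (the Cy5 arrays below), and Cy3 marked them on arrays 3 and 4 (the Cy3 arrays). The series calls the arrays technical replicates, so there was 1 sample per line, every SD and p below covers the spread between hybridisations only, and the effect of Erbb2 cannot be told apart from other differences between the lines. The labels do not state which promoter drove Erbb2 or how many clones the line holds, and the level of Erbb2 itself was not analysed here. Part of the labels' protocol text speaks of organs and of a pool from control animals, which are not cell lines. In bulk RNA, fewer cells of a kind and less RNA per cell cannot be told apart.

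The ribosome is built from ribosomal RNA and one copy of most of its proteins, so cells make these proteins in matched amounts. Their mRNAs are abundant and short, and most begin with a run of pyrimidines, the terminal oligopyrimidine (TOP) tract, through which mTORC1 signalling controls their translation. Growth factor receptors such as ERBB2 feed into this signalling, and growing fibroblasts spend much of their transcription on ribosomes. A change in translation alone would not show in an mRNA ratio. Mouse ribosomal protein genes also have many near-identical processed pseudogenes, whose transcripts could bind the same cDNA probe; this was not tested.

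The start-site sequences are shown because a pyrimidine run there, which the choice by name did not use, was found in most members but not in all. The RefSeq promoter table (GRCm38.p6) held an entry for 43 of the 47 members, and Rpl8, Rpl30, Rps14 and Rps20 are named without a sequence. In the 60 bases from 40 before to 20 after an annotated start, read on the gene's strand, 28 of these 43 genes (65.1%) had an unbroken run of at least 8 C or T in a listed promoter, against 26.8% of 5134 genes tested on the arrays that had an entry. The share was 15 of 25 for the large subunit and 13 of 18 for the small subunit. Runs anywhere in the window were counted, also those wholly before or after the annotated start. These shares are therefore not those of genes with a TOP tract. The letters CCGGAAG, the core of sites for ETS factors such as GABP, stood on either strand of the 300-base promoter in 20 of 43 members (46.5%), against 19.6% of the same 5134 genes. These matches describe the letters in these windows and show no binding.

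The first 6 windows below were chosen to show runs of at least 8 (all in capitals) in genes of both subunits, and the last 3 because the genes stand out in the values that follow while no run of 8 lies in the window. Each is given 5′ to 3′ with its position in GRCm38.p6.
Rpl7a (chr2:26910767-26910826, plus strand): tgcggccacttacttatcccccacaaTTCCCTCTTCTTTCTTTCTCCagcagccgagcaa
Rpl27a (chr7:109519155-109519214, plus strand): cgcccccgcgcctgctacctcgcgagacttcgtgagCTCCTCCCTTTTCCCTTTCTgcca
Rpl35 (chr2:39005112-39005171, minus strand): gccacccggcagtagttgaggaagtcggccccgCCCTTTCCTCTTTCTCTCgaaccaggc
Rps15a (chr7:118116128-118116187, minus strand): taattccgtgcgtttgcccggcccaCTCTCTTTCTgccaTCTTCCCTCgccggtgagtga
Rps27 (chr3:90213629-90213688, minus strand): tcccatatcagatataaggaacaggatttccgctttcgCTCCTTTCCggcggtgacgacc
Rpl39 (chrX:37085203-37085262, minus strand): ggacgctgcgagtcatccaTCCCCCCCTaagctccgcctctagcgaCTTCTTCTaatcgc
Rpl37a (chr1:72711220-72711279, plus strand): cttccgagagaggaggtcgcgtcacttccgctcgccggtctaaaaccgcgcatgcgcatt
Rpl26 (chr11:68901526-68901585, plus strand): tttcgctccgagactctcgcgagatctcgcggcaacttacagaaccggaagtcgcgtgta
Rpl9 (chr5:65391412-65391471, minus strand): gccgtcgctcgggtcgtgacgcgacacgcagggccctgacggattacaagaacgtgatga
In Rpl7a, Rpl27a, Rpl35 and Rps27 the run spans the annotated start. Rps15a and Rpl39 each have 2 runs: in Rps15a the shorter one spans the start, and in Rpl39 neither does. In Rpl37a, Rpl26 and Rpl9 no run of this length is in the window.

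Values are log2 ratios. Their direction is unstated, but the likely one is transfected over untransfected on all 4 arrays, judged from capped ratios that lie above 0 on the Cy5 arrays and below 0 on the Cy3 arrays, and all signs below would turn together if it were wrong. The values of each array also hold a constant of that array, so 0 is not a ratio of 1:1, and signs are best read beside the array's median. The array medians over all genes were 0.10, -0.01, -0.14 and -0.16 on arrays 1 to 4. The ribosomal protein genes together showed no common shift over the 4 arrays. Their mean ratios ran from -0.78 (Rpl22) to 0.90 (Rpl9), with a median of 0.04 beside -0.08 for all genes. A mean above 0 was found in 26 members and a mean below 0 in 21, where 43.9% of all genes had a mean above 0. No gene was called by limma at a Benjamini-Hochberg adjusted p under 0.05, among the members or among all genes (0% of 6327). At an unadjusted p under 0.05, limma had 1 member higher (Rpl9) and 1 lower (Rpl26), beside 4.05% of all genes higher and 7.49% lower.

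**Figure D1:**
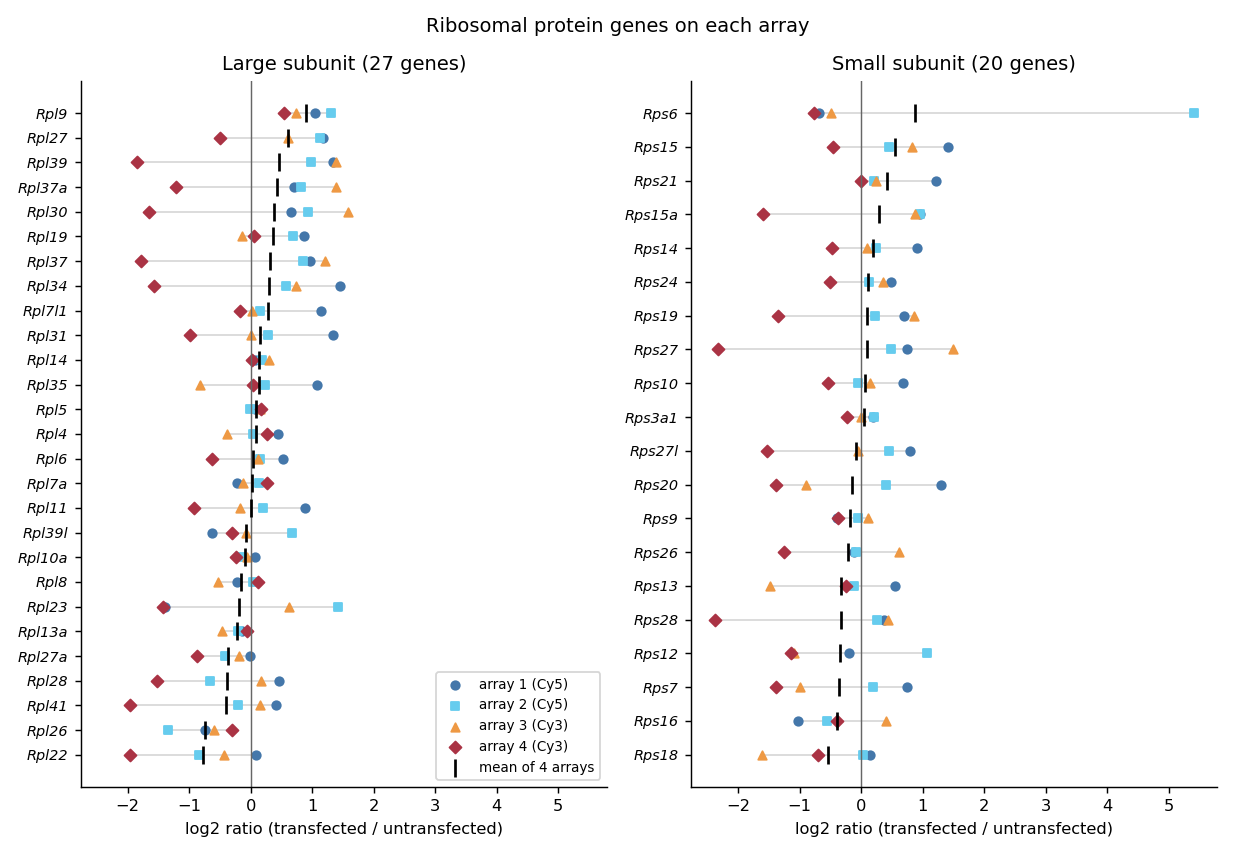
Log2 ratio (x axis, transfected over untransfected) of each ribosomal protein gene on each of the 4 arrays (coloured symbols), with the mean of 4 arrays as a black bar; genes are ordered by mean within the large (left) and small (right) subunit. Grey lines span the lowest to the highest array. Most red diamonds (array 4) lie left of the other symbols, as in Rpl39 and Rps27, whereas all 4 symbols of Rpl9 lie right of 0 and those of Rpl26 left of 0.

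Few members kept 1 sign on every array. Rpl9 and, as an average of 3 probes that disagreed, Rpl14 were above 0 on all 4 arrays, 4.26% of the members beside 9.58% of all genes. Rpl13a, Rpl26 and Rpl27a were below 0 on all 4, 6.38% of the members beside 13% of all genes. For Rpl13a this held for the average of 2 probes, which differed in sign on arrays 1 and 4. All 5 belong to the large subunit, but the set changes when read beside each array's median. Rpl9 and the small subunit gene Rps21 lay above that median on all 4 arrays. Below it on all 4 lay Rpl22, Rpl26 and Rpl27a.

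In the large subunit, Rpl9, one of its conserved core proteins, had the highest mean of all members. It measured 1.04 and 1.30 on arrays 1 and 2 and 0.74 and 0.54 on arrays 3 and 4, a mean of 0.90 ± 0.34 (SD over 4 arrays; limma, adjusted p = 0.382). Both Cy5 arrays lay above both Cy3 arrays, and none came near 0. Its single probe lies in the last rows, which were moved by 4; with all rows as deposited the mean was 0.34. Rpl26, which lines the exit of the tunnel for the growing chain and also binds the mRNA of p53, measured -0.74, -1.35, -0.59 and -0.30 on arrays 1 to 4. Its mean of -0.75 ± 0.44 (limma, adjusted p = 0.432) came from a probe in the first rows, which were not moved. Without array 2 the fitted mean of Rpl26, which weighs both dye orientations equally, was -0.59. That of Rpl9 was 0.84. In these fits array 1 alone stands for the Cy5 orientation.

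Rpl22, an RNA-binding protein of the large subunit that is dispensable for the ribosome itself, had the lowest mean. Its values were 0.09, -0.83, -0.43 and -1.96, a mean of -0.78 ± 0.87. Array 4 was lowest and array 1 near 0, and both of its probes were lowest on array 4. Rpl41, the shortest ribosomal protein, had 0.40, -0.20, 0.16 and -1.96, a mean of -0.40 ± 1.07 that array 4 alone carried below 0. Rpl27 had 1.18, 1.13 and 0.60 on arrays 1 to 3 and -0.49 on array 4, a mean of 0.60 ± 0.78. Rpl39, a very short protein in the wall of the exit tunnel, had 1.34, 0.98 and 1.39 on arrays 1 to 3 and -1.86 on array 4. Its mean of 0.46 ± 1.56 thus lay between values of opposite sign.

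Several large subunit genes had averages near 0 with little spread. Rpl5, which carries the 5S ribosomal RNA into the subunit together with Rpl11, had 0.07, -0.02, 0.15 and 0.17, a mean of 0.09 ± 0.09. Rpl11 itself ranged from 0.89 on array 1 to -0.92 on array 4, with a mean of -0.001 ± 0.75. Rpl10a, a protein of the stalk at which spent tRNA leaves, had a mean of -0.10 ± 0.13, and Rpl14, whose probes disagreed, 0.14 ± 0.13. Rpl13a, known also for silencing translation outside the ribosome, had -0.22 ± 0.18 as an average of probes that differed in sign on arrays 1 and 4. Rpl8 had -0.22, 0.03, -0.54 and 0.12, a mean of -0.15 ± 0.29. Rpl7a had 0.01 ± 0.23, Rpl4 0.09 ± 0.36 and Rpl27a -0.37 ± 0.37. The means of Rpl6, Rpl19, Rpl23, Rpl28, Rpl31 and Rpl35 lay between -0.39 (Rpl28) and 0.36 (Rpl19). Their SD over arrays was from 0.49 (Rpl19 and Rpl6) to 1.44 (Rpl23). A further probe of Rpl6 entered arrays 1 and 4 only. Rpl6 had -0.64 on array 4, where its complete probe alone had -0.10. The paralogue Rpl7l1, related to a ribosome assembly factor, had 0.29 ± 0.58, and Rpl39l, a paralogue of Rpl39 best known from testis, -0.08 ± 0.55.

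In the small subunit, Rps6, the substrate of the S6 kinases, had the highest mean and the least agreement. It measured -0.68, -0.48 and -0.76 on arrays 1, 3 and 4 and 5.41 on array 2. Its mean of 0.87 ± 3.03 therefore rests on 1 array: without array 2 the fitted mean was -0.65, and with all rows as deposited the mean was -0.27. Rps15, which lies in the head of the subunit, had 1.41, 0.45 and 0.83 on arrays 1 to 3 and -0.46 on array 4, a mean of 0.56 ± 0.79. Its second probe had a value on array 1 only and enters that array alone. Rps18, also of the head, had 0.14 and 0.03 on the Cy5 arrays and -1.61 and -0.71 on the Cy3 arrays, a mean of -0.54 ± 0.81. Rps16 had -1.03 and -0.56 on the Cy5 arrays and 0.40 and -0.40 on the Cy3 arrays, a mean of -0.40 ± 0.60. The 2 genes differed between the dyes in opposite directions.

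The other small subunit genes had means between -0.36 (Rps7) and 0.42 (Rps21). Rps3a1 (0.04 ± 0.20) and Rps9 (-0.18 ± 0.25) had the least spread. Rps10 had 0.06 ± 0.50, Rps13 -0.32 ± 0.85, and Rps26 -0.21 ± 0.77. A further probe entered only arrays 1 and 3 of Rps13 and only arrays 1 and 4 of Rps26. Rps13 had -1.49 on array 3, where its complete probe alone had -0.62. Rps26 had -1.25 on array 4, where its complete probe alone had -2.07. Rps14 had 0.20 ± 0.57 and Rps24, mutated in some cases of Diamond-Blackfan anaemia, 0.11 ± 0.44. The p53-inducible paralogue Rps27l had -0.08 ± 1.02, beside 0.10 ± 1.68 for Rps27.

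The subunits did not differ by more than the spread between arrays. The median ratio of the large subunit genes was 0.47, 0.18, 0.03 and -0.49 on arrays 1 to 4, and that of the small subunit genes was 0.61, 0.22, 0.13 and -0.73. The difference, large minus small, was -0.15, -0.04, -0.10 and 0.24, a mean of -0.01 ± 0.17. By medians, the large subunit was thus slightly lower on arrays 1 to 3 and higher on array 4. By means over genes, the difference was -0.015, -0.23, 0.20 and 0.27, so array 3 had the other sign. Its average over arrays was 0.06 ± 0.23. The value on array 2 includes Rps6 at 5.41. Taken over the gene means, the medians were 0.09 (large) and -0.02 (small), a difference of 0.11, which was -0.09 without array 4. The median SD over arrays was 0.58 for the large and 0.83 for the small subunit, beside 0.70 for all genes.

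The arrays themselves differed more than the subunits. On arrays 1 to 3, 31, 34 and 32 of the 47 members lay above the array's median of all genes, and on array 4, 10 did. The median of the members stood 0.44, 0.21 and 0.26 above that of all genes on arrays 1 to 3, and 0.47 below it on array 4. In the small subunit 1 of 20 genes, Rps21, lay above the median of all genes on array 4, compared with 9 of 27 in the large subunit. Array 4 was the lowest of the 4 arrays for 34 members, 72.3% of them, beside 26.5% of all genes. After each array had been centred on its median it was lowest for 30 members (63.8%), beside 22% of all genes.

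**Figure D2:**
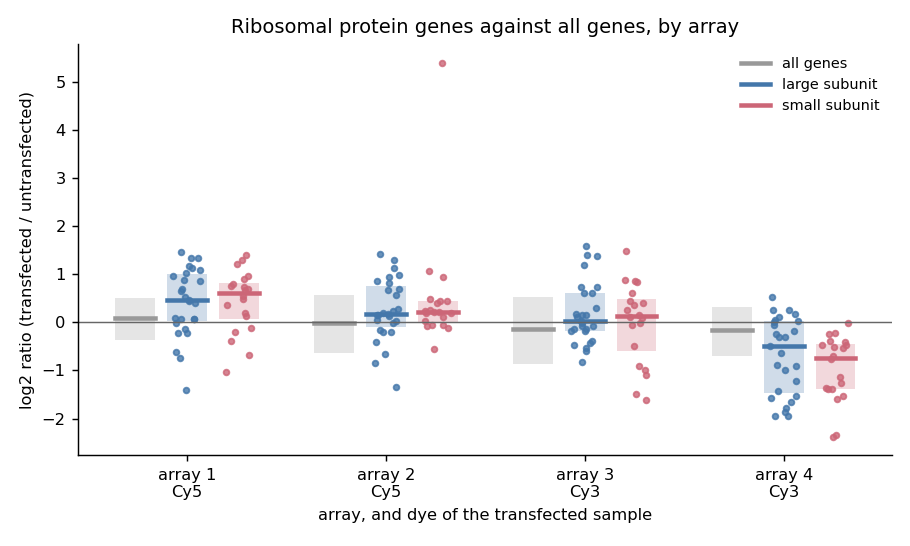
Log2 ratio (y axis) on each array (x axis, with the dye of the transfected sample): boxes span the quartiles and thick lines mark the medians of all 6327 genes (grey), large subunit genes (blue) and small subunit genes (red), and points are single ribosomal protein genes. Both subunits lie above the median of all genes on arrays 1 to 3 and below it on array 4; the point at 5.41 on array 2 is Rps6.

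The opposite sign on array 4 was strongest in 9 genes, which were singled out after their values had been seen: Rpl30, Rpl34, Rpl37, Rpl37a, Rpl39, Rps15a, Rps19, Rps27 and Rps28. They were above 0 on arrays 1 to 3 and below -1 on array 4, as were 2.17% of all genes; they make up 19.1% of the members. With array 4 anywhere below 0, the count was 16 of 47 members, beside 7.33% of all genes. Rps27 had 0.75, 0.49 and 1.49 on arrays 1 to 3 and -2.34 on array 4. Rps28 had 0.36, 0.26 and 0.44 and then -2.38. Rps15a had 0.96, 0.95 and 0.88, closely alike, and -1.60 on array 4. Rps19, the gene most often mutated in Diamond-Blackfan anaemia, had 0.69, 0.22, 0.85 and -1.36.

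The set held 5 large subunit genes. Rpl37 had 0.96, 0.85 and 1.20 on arrays 1 to 3 and -1.78 on array 4, and Rpl37a, another short zinc-binding protein, had 0.71, 0.82, 1.39 and -1.21. Rpl34 had 1.46, 0.57, 0.73 and -1.58. Rpl30 had 0.65, 0.94, 1.59 and -1.66 as the average of 2 probes, of which 1 carried this pattern and the other had the opposite sign on arrays 2 to 4. In the averages of all of these genes the 3 arrays above 0 and the single array below it came from the same 2 RNA samples. Array 3 shared the dye orientation of array 4, and its sign in these genes was fixed by the choice of genes. What set array 4 apart was not tested. Of the 9, 5 of the 8 with a promoter entry had a run of at least 8 pyrimidines anywhere in a listed window. This share (62.5%) was close to that of all members.

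**Figure D3:**
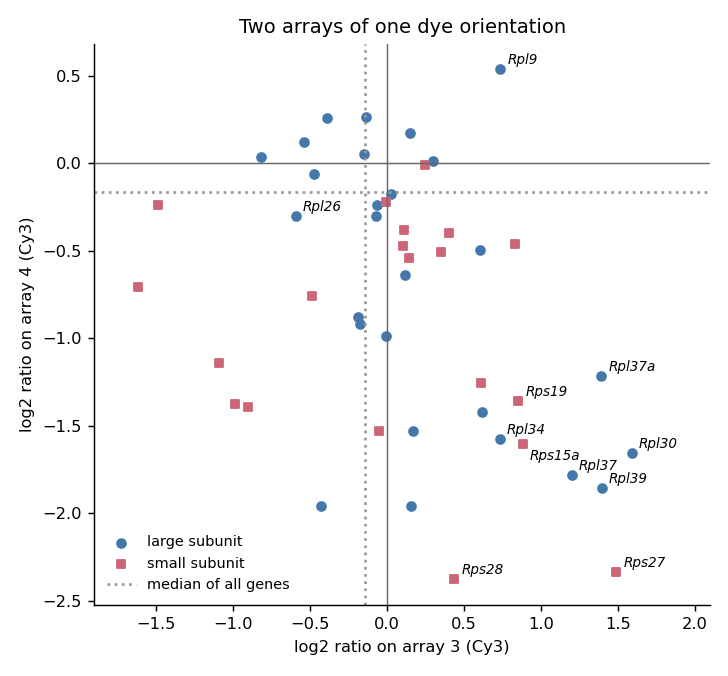
Log2 ratio of each ribosomal protein gene on array 3 (x axis) and array 4 (y axis), both with the transfected sample in Cy3; dotted lines mark the medians of all genes on each array, and the 9 genes above 0 on arrays 1 to 3 and below -1 on array 4 are named together with Rpl9 and Rpl26. The genes highest on array 3, such as Rpl39 and Rps27, are among the lowest on array 4. Rpl30 also is, as an average of probes with opposite signs on both arrays.

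Across the 47 members, arrays 3 and 4 had Pearson's r = -0.37 (Spearman's rho = -0.37), while across all 6327 genes they had 0.20 (rho = 0.21). These genes were measured on the same arrays and are not independent. The members' other pairs of arrays had r between -0.16 (arrays 1 and 4) and 0.25 (arrays 1 and 3); arrays 1 and 2, where Rps6 is an outlying point, had r = -0.01 and rho = 0.42. By rank, arrays 1 to 3 were weakly correlated across the members (rho of 0.32 to 0.42, beside 0.14 to 0.20 across all genes), and array 4 had rho of -0.37 to -0.19 with them, beside 0.09 to 0.21.

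Leaving out array 4, which had been seen to be lowest for most members, changed the picture of single genes. The 9 genes singled out above were above 0 on arrays 1 to 3 by choice, so their estimates above 0 there were fixed in advance. These fits weighed both dye orientations equally, so the array left alone in its orientation weighed as much as the other 2 together. The spread of that lone array could not be measured, so only estimates are given. With array 3 left out instead, which gave array 4 that weight, the members' median was -0.19. Then 63.8% of the members lay below the median of all genes, compared with 27.7% without array 4. Fitted on arrays 1 to 3, 30 of the 47 members had an estimate above 0, beside 45.7% of all genes, and the members' median was 0.23. At an unadjusted p under 0.05, limma then had 6 members higher (Rpl9, Rpl30, Rpl37, Rpl37a, Rpl39 and Rps27), beside 6.29% of all genes, and 0 lower, beside 9.36%. The largest estimate of these was that of Rpl39, 1.28 (limma, adjusted p = 0.22). No gene passed after adjustment there either (0% of 6327).

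The comparison of dye orientations was shaped by the same array. The mean of the Cy5 arrays exceeded that of the Cy3 arrays in 41 of 47 members (87.2%), beside 56.6% of all genes. The median difference, Cy5 minus Cy3, was 0.72 in the members and 0.15 in all genes. Without array 4 the members' median difference was 0.10, and without array 3 it was 1.05. Both Cy5 arrays lay above both Cy3 arrays in 17 members (36.2%, beside 22% of all genes) and both Cy3 arrays above both Cy5 arrays in 3, Rpl26, Rpl5 and Rps16 (6.38%, beside 13.9%).

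By the dye term of limma, 0 members and 0% of all genes passed after adjustment, and 2 members had an unadjusted p under 0.05, beside 5.31% of all genes. Rps20 had 1.30 and 0.41 on the Cy5 arrays and -0.90 and -1.39 on the Cy3 arrays (dye term of limma, adjusted p = 0.868). Rps7, which also binds the p53 regulator MDM2, had 0.75 and 0.19 against -0.99 and -1.38 (adjusted p = 0.868). In both genes the sign followed the dye, and arrays 3 and 4 had the same sign. Rps6 had the largest difference between orientations, 2.98, through its value on array 2 alone. Rps12 had -0.20 and 1.07 on the Cy5 arrays and -1.09 and -1.14 on the Cy3 arrays.

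Probes of 1 gene allow the names to be compared within an array. Of the members, 13 had more than 1 probe with a value on all 4 arrays. The probes of Rpl37a, both in the first rows, had 0.59, 0.64, 1.58 and -1.11, and 0.83, 1.01, 1.21 and -1.32. Those of Rpl37 lie in the first rows (0.39, 0.78, 0.51 and -1.32) and in moved rows (1.53, 0.92, 1.89 and -2.24). Those of Rpl34 had 1.68, 0.78, 0.40 and -1.65, and 1.23, 0.36, 1.07 and -1.50. In these 3 genes separate probes gave the same signs on every array. Both probes of Rps14 were lowest on array 4, at means of 0.19 and 0.21, but differed in sign on array 3.

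Other genes had probes that disagreed. Rpl30 had 1.17, 2.69, 5.26 and -4.13 with 1 probe and 0.14, -0.81, -2.08 and 0.82 with the other, means of 1.24 and -0.48. The probes of Rps12 had means of 0.41 and -1.09, and the 3 probes of Rpl8 had -0.60, -0.30 and 0.45. The 3 probes of Rpl14 had -0.35, -0.44 and 1.01 on array 1 and means of -0.20, 0.08 and 0.55; with the first 6000 rows alone the mean of Rpl14 was -0.06. Rps21 was lowest on array 4 (-1.99) with its probe in the first rows, while its 3 probes in moved rows had 0.65, 0.74 and 0.58 there. Rps24 likewise had -2.16 on array 4 with the probe in the first rows and 1.15 with the other. Averages of these 6 genes thus join unlike values.

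Array 4 was also lowest for most members in the first 6000 rows and in the lower rows, but not with all rows as deposited. In the first 6000 rows, where no row was moved, array 4 was lowest for 12 of 19 members (63.2%), beside 26.1% of 2238 genes. In the lower rows by themselves, moved back, it was lowest for 23 of 32 (71.9%), beside 25.4%. With all rows as deposited it was lowest for 21 of 44 (47.7%), beside 26.4%.

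The share of genes lowest on array 4 varied among the other lists of the translation machinery, beside 26.5% of all genes. The 48 mitochondrial ribosomal protein genes, which serve a separate ribosome, had medians of -0.06, -0.08, 0.00 and 0.00 on arrays 1 to 4, and array 4 was lowest for 10 of them (20.8%). Their means ran from -1.13 (Mrpl49) to 1.16 (Mrpl48), and the median of the means was 0.06. The 28 translation factor genes had a median of the means of 0.07, from Eef1d (-0.94 ± 1.19) to Eef1g (1.06 ± 0.98), both subunits of elongation factor 1. Array 4 was lowest for 5 of them (17.9%).

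Genes of ribosome biogenesis, whose products make and process ribosomal RNA, had a median above that of all genes on every array. Their 41 measured members had medians of 0.14, 0.44, 0.45 and 0.51 on arrays 1 to 4. Of them, 33 had a mean above 0 (beside 43.9% of all genes), 17 were above 0 on all 4 arrays (beside 9.58%) and 2 were below 0 on all 4 (beside 13%). At an unadjusted p under 0.05, limma had 6 of them higher, beside 4.05% of all genes, and 0 lower, beside 7.49%, and 0 passed after adjustment. Rrp9 had the highest mean (1.31 ± 1.11) and Utp6 the lowest (-0.72 ± 0.58). Nop56, a core protein of the complexes that methylate ribosomal RNA, had 1.08, 0.83, 1.13 and 1.09 (limma, adjusted p = 0.368), close together on all 4 arrays. Array 4 was lowest for 4 of the 41 (9.76%).

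**Figure D4:**
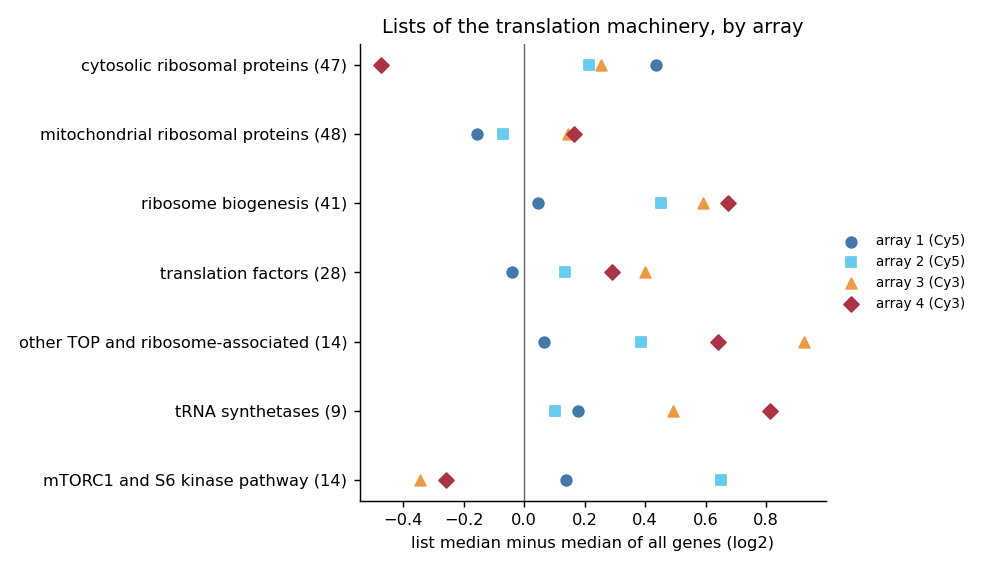
Median log2 ratio of each list minus the median of all genes (x axis) on each array (symbols), for cytosolic ribosomal protein genes and other lists of the translation machinery (y axis, number of measured genes in brackets). Array 4 (red diamond) lies at -0.47 for cytosolic ribosomal protein genes and at 0.67 for ribosome biogenesis genes.

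Genes with a TOP tract or a place at the ribosome whose symbols fall outside the name pattern had a median of the means of 0.34 over 14 measured genes, and array 4 was lowest for 4 of them (28.6%). Naca had the lowest mean (-0.34 ± 0.33) and Serbp1, an mRNA-binding protein found on ribosomes, the highest (0.91 ± 0.25). The stalk proteins Rplp1 and Rplp2 had 0.28 ± 0.51 and 0.32 ± 0.44, and Rpsa, a small subunit protein, 0.39 ± 0.19. Rpl36al, a close relative of Rpl36a, had 0.63, 0.33, 0.84 and -1.81, low on array 4 like the 9 genes above, whereas Rpsa had 0.63 there. Of the cytosolic aminoacyl-tRNA synthetase genes 9 were measured, from Cars (-0.63 ± 2.26) to Vars (0.84 ± 0.90), with a median of 0.25. The 14 genes of the mTORC1 and S6 kinase pathway had a median of -0.09, from the inhibitor gene Tsc2 (-1.33 ± 1.69) to Pdcd4 (1.63 ± 2.32), whose product restrains initiation. Array 4 was lowest for 6 of these 14 (42.9%), and the mean of the Cy5 arrays was above that of the Cy3 arrays in 12 (85.7%), with a median difference of 1.13. Array 4 was lowest for 0 of the 9 synthetase genes. In these last lists 0 genes passed after adjustment.

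Of 16 fibroblast markers, 10 were measured, with a median of the means of -0.52, but the list was split. The matrix genes Lox (-5.18 ± 0.95), Col1a1 (-4.91 ± 1.46), Fn1 (-3.89 ± 0.36) and Col1a2 (-3.36 ± 0.69) were below 0 on all 4 arrays, beside 13% of all genes. They also had an unadjusted p under 0.05 in limma, beside 7.49% of all genes lower, with adjusted p from 0.105 to 0.161. The other 6 had means from -0.94 (Prrx1) to 0.89 (Col3a1). Medians of the means for markers of other cell types were 0.35 for epithelial cells (3 measured, from Epcam at -0.52 to Cldn3 at 0.86), -0.22 for leukocytes (3, Lyz2 at -1.17 to Cd3e at 0.79), -0.06 for endothelial cells (5, Emcn at -1.03 to Cdh5 at 0.45), 0.02 for muscle cells (9, Myh1 at -2.67 to Myl1 at 0.28) and -0.44 for adipocytes (4, Plin1 at -0.65 to Fabp4 at 0.27). Ratios give no levels, so the presence of a cell type could not be read from them, and their part in the values of the ribosomal protein genes was not tested.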

How the data were processed

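The authors deposited log2 ratios of both channels for 20355 probes on 4 arrays. How images were analysed, corrected and normalized is not given in the sources used here. That the scale is log2, with a constant particular to each array, was inferred from the values, and the constant was not removed. Columns were matched to arrays by the labels. The members, lists and rows were chosen with earlier results of these data known. Rows 1 to 6000 were used as they stand. For probe rows 8001 to 18000, arrays 2 to 4 were read from the row numbered 3 lower, and from row 18301 on from that numbered 4 lower; 2300 other rows were left out. These offsets raised the mean correlation of array 1 with the others, across probes, from -0.004 to 0.085 and from -0.009 to 0.134 (0.115 in the first rows). Values beyond 15 either way, 418 in all, were dropped as capped ratios. Probes with 1 symbol (14030; 5 had several, 6320 were unnamed here) were averaged per gene; 17 members had several probes. Of the 56 symbols, 55 matched the RefSeq gene table (GRCm38.p6) by identifier without change. Rpl5 was matched to its promoter by symbol.

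Genes measured on all 4 arrays were fitted in limma 3.58.1 (R 4.3.3; lmFit, eBayes) with a dye term coded 1 and -1, and p-values were adjusted by Benjamini-Hochberg over all 6327 genes. The script was tested on simulated data. The number of arrays limits the precision, and depth is not defined for them. All members are named. Values on every array are given for members with 1 sign and an unadjusted p under 0.05, the 5 highest and 5 lowest means, genes whose probes differ by over 1 and the 3 largest dye terms. From each other list the highest and lowest means are given. Genes chosen otherwise were chosen after their values were seen. Alternatives covered the dye term, centring, scaling, rows, capped values, probes, arrays required, variances and each array left out.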

Additional observations from a re-analysis of the deposited data

Results flagged for a closer look

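The values of each member and the medians of the members and of each subunit, 50 in all, were checked for 1 array far from the other 3 (gap to the nearest array over the whole range above Dixon's 95% critical value). This was so for 5 genes; about 5% of such groups pass by chance, and 6.69% of all genes did. In 4 of the genes array 4 stood apart below the others: Rps15a (gap over range 0.971), Rps28 (0.936), Rpl37 (0.883) and Rpl39 (0.872). On array 4 they lay between -2.38 and -1.60, and on the other arrays between 0.26 and 1.39. The fifth gene, Rps6, stood apart on array 2 (0.955), at 5.41 against -0.76 to -0.48.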

How the results depend on the processing

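The share of members lowest on array 4, and its alternatives, were chosen after the data were seen. Members with an unadjusted p under 0.05 in limma numbered 2. They numbered 1 with arrays centred, 1 with arrays scaled, 1 with at least 3 arrays, 1 with robust variances and 1 in the lower rows. They numbered 0 in the first 6000 rows and 0 with all rows as deposited. Fits with 1 array left out hold a lone array in 1 dye orientation, so their counts are not given. Genes called after adjustment numbered 0, against 3 with arrays scaled, 3 with the median of probes, 6 without the dye term and 6 with each probe fitted singly. Under every setting that kept all 4 arrays, 0 members were called. The difference of subunit medians (0.11) was -0.086 to 0.17 without 1 array, 0.27 in the first 6000 rows, 0.03 in the lower rows, 0.06 as deposited, 0.05 with at least 3 arrays, 0.05 without paralogues and 0.01 with single probes; the members' Cy5 minus Cy3 median (0.72) was 0.10 to 1.05; array 4 gave the lower end of both. Array 4 was lowest in 72.3% of members and in 47.7% with all rows as deposited. The causes were not tested. The members' median (0.04) ran from -0.19 without array 3 to 0.23 without array 4. Of 607 values of single members under other settings, 54 had the other sign, 37 of them with 1 array left out. No paired analysis was possible because the arrays form 1 group with no second set of replicate numbers; each ratio already pairs both lines within its array. Spot intensities were not analysed here, so dim spots could not be told from bright ones.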
